A study of Mus musculus with 4 samples.

Results

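Kinesins are motor proteins that walk along or take apart microtubules, and centromere proteins build the platform on which spindle microtubules grip a chromosome. The genes described here are all those whose symbol, found through the RefSeq accession of an array probe, begins with Kif and a digit or c, or is Cenp and 1 letter. This rule found 61 genes of the 20660 named genes on the array, 41 kinesins and 20 centromere proteins. The kinesins were divided by known role into 13 mitotic, 17 transport and 11 other members. A gene was tested where its signal stood clearly above background on both arrays of 1 fraction or of both, which held for 56 of the 61.

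Mouse embryonic stem (ES) cells of the EB5 line, with the fluorescent protein Venus reporting Hoxb6, had differentiated for 6 days on OP9 feeder cells, a stromal line. Both groups were sorted as positive for Flk-1, a receptor of mesoderm and endothelium whose gene is Kdr. By their labels they differ only in the reporter, as the Venus-negative group (Flk-1+Hoxb6-Venus-) and the Venus-positive group (Flk-1+Hoxb6-Venus+). Each group had 2 samples, with 1 single-colour Agilent array per sample, and the groups lay in different columns of the slide. The reporter stands for Hoxb6 activity in 1 engineered line, and feeder cells were present in the cultures. The labels do not say whether replicates came from separate cultures, and the p-values may therefore reflect technical spread alone. In bulk RNA such as this, fewer cells that express a gene and less RNA per cell cannot be told apart.

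As background, cells make most mitotic kinesins and many kinetochore proteins mainly late in the cell cycle, in G2 and M phase, and destroy them when division ends. Transport kinesins carry vesicles, organelles and RNA at all times, and several of them are best known from neurons with long axons. The centromere is marked by the histone variant CENP-A. An inner network of CENP proteins assembles on it and anchors the outer kinetochore complexes that bind microtubules.

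Many G2/M genes share a short promoter element, the cell cycle genes homology region (CHR), read here as TTTGAA or its variant TTCGAA, and CCAAT boxes bound by the factor NF-Y. Both strands of the window from 250 bases before to 50 after each annotated start were searched in RefSeq promoters of GRCm38.p6, which hold 52 of the 61 members. Not in that table are Kif13b, Kif19a, Kif20a, Kif21b, Kif4-ps, Kif5a, Kif5b, Kifc2 and Kifc3. The stretches below, from 60 bases before to 26 after the start, show where the element lies in 8 mitotic kinesins, with members of other classes for comparison. Capitals mark TTTGAA (read as TTCAAA on the other strand) and CCAAT (read as ATTGG). The first 8 are mitotic kinesins, then Cenpa and Cenpf, 2 of the 4 centromere proteins that hold TTTGAA in this range (the others are Cenpn and Cenpw). The last are the other kinesin Kif26b, which holds it, and the transport kinesin Kif21a, which does not, shown because their transcripts fell in Venus-positive cells. The transport kinesin Kif1a, whose transcript also fell, is not printed, and it holds TTTGAA at -44 from an alternative annotated start.
Kif11 (chr19:37376322-37376407, strand +): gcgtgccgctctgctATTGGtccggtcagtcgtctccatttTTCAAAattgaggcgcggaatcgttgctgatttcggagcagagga
Kif15 (chr9:122951021-122951106, strand +): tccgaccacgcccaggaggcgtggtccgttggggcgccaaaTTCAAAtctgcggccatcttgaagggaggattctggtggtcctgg
Kif22 (chr7:127042395-127042480, strand -): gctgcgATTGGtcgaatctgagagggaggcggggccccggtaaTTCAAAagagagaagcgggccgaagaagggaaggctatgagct
Kif18b (chr11:102925099-102925184, strand -): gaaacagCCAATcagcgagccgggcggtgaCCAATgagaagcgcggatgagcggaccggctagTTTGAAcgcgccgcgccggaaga
Kif23 (chr9:61946774-61946859, strand -): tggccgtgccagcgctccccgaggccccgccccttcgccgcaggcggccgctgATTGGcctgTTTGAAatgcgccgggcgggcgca
Kif4 (chrX:100626005-100626090, strand +): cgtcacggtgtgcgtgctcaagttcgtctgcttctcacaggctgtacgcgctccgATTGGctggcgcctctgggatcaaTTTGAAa
Kifc1 (chr17:33890608-33890693, strand -): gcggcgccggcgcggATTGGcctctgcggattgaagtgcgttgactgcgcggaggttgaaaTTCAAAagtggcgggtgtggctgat
Kif20b (chr19:34922298-34922383, strand +): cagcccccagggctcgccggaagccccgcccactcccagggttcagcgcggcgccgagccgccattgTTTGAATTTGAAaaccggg
Cenpa (chr5:30666826-30666911, strand +): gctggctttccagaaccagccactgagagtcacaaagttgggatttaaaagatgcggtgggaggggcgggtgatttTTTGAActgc
Cenpf (chr1:189688061-189688146, strand -): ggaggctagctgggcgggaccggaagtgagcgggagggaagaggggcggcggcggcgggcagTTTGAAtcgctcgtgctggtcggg
Kif26b (chr1:178529065-178529150, strand +): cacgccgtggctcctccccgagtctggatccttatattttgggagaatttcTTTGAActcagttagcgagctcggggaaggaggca
Kif21a (chr15:91049926-91050011, strand -): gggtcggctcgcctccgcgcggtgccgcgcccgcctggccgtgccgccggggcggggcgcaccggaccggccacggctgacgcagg

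TTTGAA was found in 10 of 12 mitotic kinesins with a window (83.3%), against 1 of 11 transport kinesins (9.09%), 2 of 9 other kinesins (22.2%) and 5 of 20 centromere proteins (25.0%). Of all 27025 genes in the promoter table, 20.2% held it. The mitotic kinesin windows without it were those of Kif18a and Kif2b. TTCGAA was found in 1 centromere protein, Cenpm, and 1 other kinesin, Kif24, against 1.80% of all genes. CCAAT was found in 8 of 12 mitotic kinesins (66.7%), 3 of 11 transport kinesins (27.3%) and 13 of 20 centromere proteins (65.0%), against 41.1% of all genes. Kifc1 and Kifc5b, close relatives, hold TTTGAA and upstream CCAAT boxes at the same spacing, so these counts may not treat separate cases. The printed stretch is a range chosen after the matches were seen. In it, TTTGAA was held by 8 of 12 mitotic kinesins, 4 of 20 centromere proteins and 5.20% of all genes. Of the transport kinesins 1 of 11 held it there (Kif1a), and of the other kinesins 1 of 9 (Kif26b). In all members, 1 CCAAT match overlapped a match of another motif. Of the members whose fall passed the threshold, Kif26b carries TTTGAA 9 bases before its start and Kif1a carries it at -44 from an alternative start. The printed stretch of Kif21a holds neither motif. A link between motif and direction of change was not tested. These matches are letters in a window, with no test of use in these cells.

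**Figure D1:**
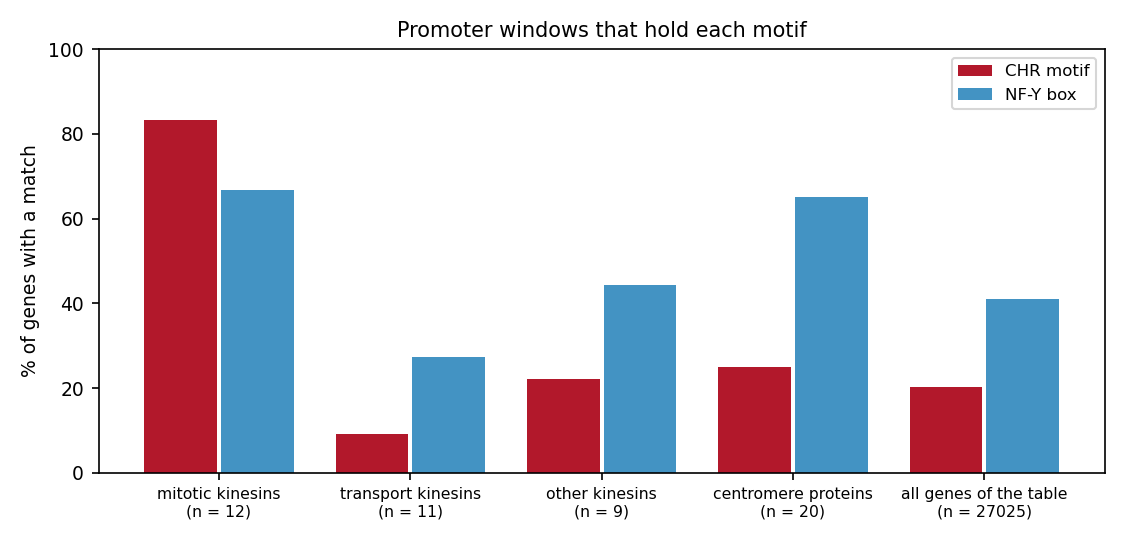
Share of genes, in percent, whose promoter window holds the CHR motif TTTGAA (red) or the NF-Y box CCAAT (blue), by class of member and for all 27025 genes of the promoter table. The CHR bar stands at 83.3% for mitotic kinesins and at 20.2% for all genes.

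The array values below are log2 signals relative to the 75th percentile of each array, so that 0 is a rather bright probe. A difference is Venus-positive minus Venus-negative, with the moderated standard error (SE) of limma and a p-value adjusted over all 23547 features tested (Benjamini-Hochberg, threshold 0.05). Levels of different genes are not compared, because probes differ in how well they bind. Of all features, 2.14% passed this threshold (0.777% higher and 1.36% lower in Venus-positive cells), and 3 of the 56 tested members did: Kif26b, Kif21a and Kif1a, all lower in Venus-positive cells. None of the 12 mitotic kinesins and none of the 20 centromere proteins passed in limma, although 7 of the 12 and 5 of the 20 had an unadjusted p under 0.05, against 23.7% of all features. With each array centred on its median, 1 member passed as higher and 3 as lower. Without any 1 of the 4 arrays none of these 3 genes passed (adjusted p from 0.128 to 0.163), and neither did any other feature.

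Mitotic kinesins were uniformly higher in the Venus-positive arrays by a moderate factor. All 12 tested members had a positive difference (50.4% of all features), between 0.23 and 0.89, with a median of 0.69, against a median of 0.00294 over all features. In all 12 both Venus-positive arrays lay above both Venus-negative arrays, an order shown by 29.1% of all features. Adjusted p-values ran from 0.124 for Kif18b to 0.372 for Kifc5b, so the difference of no single mitotic kinesin passed.

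Kif11 (Eg5), the motor that pushes spindle poles apart, had log2 signals of 0.31 and -0.20 on Venus-negative replicates 1 and 2, and of 0.85 and 0.76 on Venus-positive replicates 1 and 2. The groups did not overlap, and Venus-negative replicate 2 was the lowest array. The difference was 0.75 ± 0.21 SE, a factor of 1.68 (limma adjusted p = 0.155). Kif15, which can help Kif11 to keep the spindle bipolar, had the same order of arrays, at -1.14 and -1.77 against -0.48 and -0.74 (0.84 ± 0.27, adjusted p = 0.182).

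In the motors that act on chromosome arms and microtubule ends, Venus-negative replicate 2 was again the lowest array. Kif18b, a regulator of astral microtubule length, had the largest difference of the class, with 0.40 and -0.12 in Venus-negative against 1.06 and 1.00 in Venus-positive cells (0.89 ± 0.21, 1.85-fold, limma adjusted p = 0.124). Kif18a, which dampens chromosome movements at the metaphase plate, stood at -0.93 and -1.59 against -0.35 and -0.64 (0.77 ± 0.28, adjusted p = 0.219). For both genes Venus-negative replicate 1 lay between replicate 2 and the Venus-positive arrays. Kif22 (Kid), which pushes chromosome arms towards the spindle equator, stood at 4.27 and 3.77 against 4.76 and 4.64 (0.67 ± 0.21, adjusted p = 0.180). Kif4, a chromokinesin that works with condensin and Prc1, stood at 0.95 and 0.47 against 1.47 and 1.38 (0.72 ± 0.20, adjusted p = 0.153). Kif2c (MCAK), which takes microtubules apart at kinetochores, stood at 0.61 and 0.00 against 0.91 and 0.92 (0.61 ± 0.24, adjusted p = 0.246). Another Kif2c probe gave a difference of 0.71 ± 0.19, so both probes pointed the same way.

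The cytokinesis motors had positive differences as well, with an uneven pair of Venus-negative replicates for Kif23. Kif23 (MKLP1), part of the centralspindlin complex at the midbody, stood at 1.40 and 0.57 in Venus-negative and at 1.84 and 1.53 in Venus-positive cells. Its gap of 0.83 between the Venus-negative replicates exceeded the difference between the fractions (0.70 ± 0.33, limma adjusted p = 0.304). Kif20b, a midzone motor of late cytokinesis, stood at 2.22 and 1.85 against 2.53 and 2.64 (0.55 ± 0.17, adjusted p = 0.176), and Kif20a, which brings the passenger complex to the central spindle, at 3.10 and 2.63 against 3.39 and 3.32 (0.48 ± 0.20, adjusted p = 0.252). Kifc1 (HSET), a minus-end motor that focuses spindle poles, stood at 3.51 and 3.20 against 3.83 on both Venus-positive arrays (0.47 ± 0.15, adjusted p = 0.178). Kifc5b, a close relative of Kifc1 whose probe may share target sequence with it, had the smallest difference of the class (0.23 ± 0.13). Kif2b was not well above background on any of the 4 arrays and was not tested.

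The spread between replicates bears on all of these values. Each of the 12 mitotic kinesins was lower in Venus-negative replicate 2 than in replicate 1, with a median gap of -0.51, whereas 44.4% of all features were lower in replicate 2. The Venus-positive replicates differed by a median of only -0.08. Comparing arrays of the same replicate number, which also shared a row of the slide, the median difference between fractions was 0.47 for replicate 1 and 0.92 for replicate 2, and 12 of 12 members were positive in each. Without Venus-negative replicate 2 the median fell to 0.39. The fraction difference exceeded the larger replicate gap in 10 of 12 mitotic kinesins (83.3%), against 46.1% of all features, the exceptions being Kif23 and Kif2c. Array columns of the slide coincided with the fractions, so an effect of the column and the fraction cannot be told apart.

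**Figure D2:**
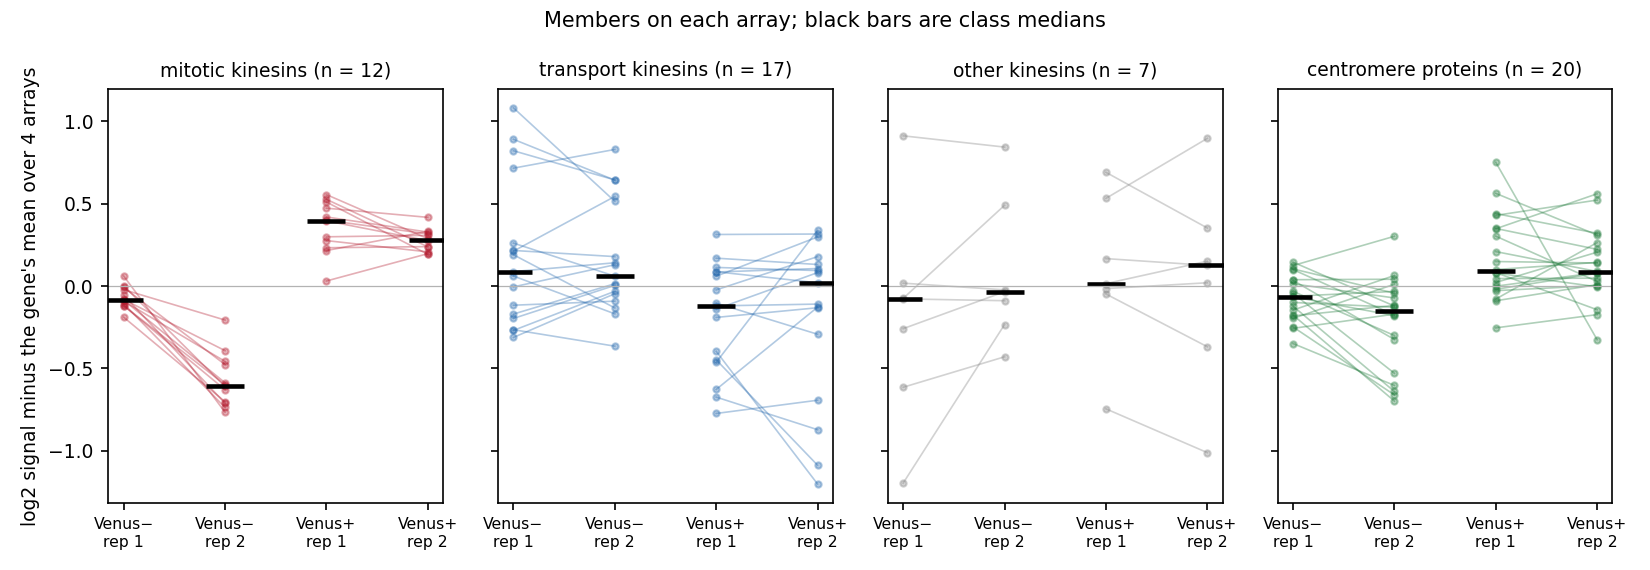
Log2 signal of each tested member on each of the 4 arrays, minus that gene's mean over the arrays; points are genes, thin lines join the replicates of a fraction, and black bars are class medians. The mitotic kinesins have medians of -0.08 and -0.60 in Venus-negative and of 0.40 and 0.28 in Venus-positive cells, while transport kinesins spread in both directions.

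Transport kinesins showed no common direction. Of 17 tested members, 7 had a positive and 10 a negative difference (49.6% of all features), from 0.63 to -1.60, with a median of -0.12. This median was 0.053 without Venus-positive replicate 1, so its sign rests on that array. Groups did not overlap in 13 members, 5 higher and 8 lower, while 57.5% of all features had groups apart. Kif21a and Kif1a fell past the threshold.

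Both transport kinesins that passed had even replicates. Kif1a, which carries synaptic vesicle precursors, had log2 signals of 1.26 and 1.38 on the Venus-negative arrays and of -0.13 and -0.32 on the Venus-positive arrays. The groups lay far apart beside a largest replicate gap of 0.20. Kif1a fell by 1.55 ± 0.12 SE on the log2 scale, 2.92-fold (limma adjusted p = 0.0365). A dimmer Kif1a probe gave -1.77 ± 0.13 but was not well above background in Venus-positive cells. That probe was kept only through the Venus-negative arrays, where it was higher, so its fall is no separate support. Kif21a, a motor that restrains microtubule growth at the cell edge, stood at -1.50 and -1.67 against -3.09 and -3.01. It fell 2.77-fold (-1.47 ± 0.12, adjusted p = 0.0361), with a largest replicate gap of 0.18. With model-based background correction its difference was -0.81 (adjusted p = 0.0238).

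The kinesin-1 heavy chains Kif5a and Kif5c gave differences as large but less even replicates. Kif5c stood at 0.52 and -0.05 in Venus-negative and at -0.96 and -1.77 in Venus-positive cells (-1.60 ± 0.37, limma adjusted p = 0.122). Kif5a stood at -1.71 and -1.96 against -3.05 and -3.69 (-1.54 ± 0.27, adjusted p = 0.0838). In neither gene did the groups overlap, but the Venus-positive replicates lay 0.81 and 0.64 apart. Kif5a passed with model-based background correction, at a smaller difference of -0.85 (adjusted p = 0.0273), and with a signal-dependent variance prior (0.0477). A dimmer Kif5a probe, well above background on only 1 array, stood at -4.25 and -4.27 against -4.89 and -4.83 and was not tested. The third heavy chain, Kif5b, found in most cells, was read by a dim probe that was well above background on 1 of 2 Venus-negative arrays, at -4.28 and -4.60 against -4.61 and -4.39. Its difference of -0.06 ± 0.17 has a 95% interval from -0.54 to 0.42.

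Close relatives of the fallen genes did not share their difference. Kif1b, which transports mitochondria and vesicle precursors, had 0.16 ± 0.14 (95% interval -0.23 to 0.54), although another Kif1b probe, designed on a different accession, gave 0.74 ± 0.10 (limma adjusted p = 0.0563 in a fit over all probes). Kif1c, a motor of adhesion and RNA transport, had 0.36 ± 0.16, and its other probes -0.27 ± 0.22 and 0.12 ± 0.28. Kif21b gave similar signals in both fractions, at 5.03 and 4.80 against 5.05 and 4.99 (0.11 ± 0.13, interval -0.25 to 0.47). The differences between relatives were not tested.

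Kinesin-2, the motor of cilia and of several cargo routes, pairs Kif3a with Kif3b or Kif3c. Kif3a stood at 3.33 and 3.39 in Venus-negative and at 3.12 and 3.13 in Venus-positive cells, a small difference with very even replicates (-0.23 ± 0.10, limma adjusted p = 0.261). Kif3b gave -0.32 ± 0.12 (adjusted p = 0.229) and Kif3c 0.30 ± 0.13 (adjusted p = 0.268). Kif17, the other kinesin-2 motor, stood at -0.90 and -0.94 against -1.22 and -1.41 (-0.40 ± 0.12, adjusted p = 0.167).

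The remaining transport kinesins were mixed. Kif16b, an endosome motor that binds membrane lipids, stood at -0.78 and -0.88 against -0.20 on both Venus-positive arrays, and its difference of 0.63 ± 0.10 was the largest increase of the class but missed the threshold (limma adjusted p = 0.0761). Kifc2 stood at -1.33 and -0.996 against -2.17 and -1.67 (-0.76 ± 0.24, adjusted p = 0.181). Kif13a and Kif13b had differences of 0.21 ± 0.09 and 0.19 ± 0.12. Kifc3 varied more between Venus-positive replicates (0.21 and 1.01) than between fractions.

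**Figure D3:**
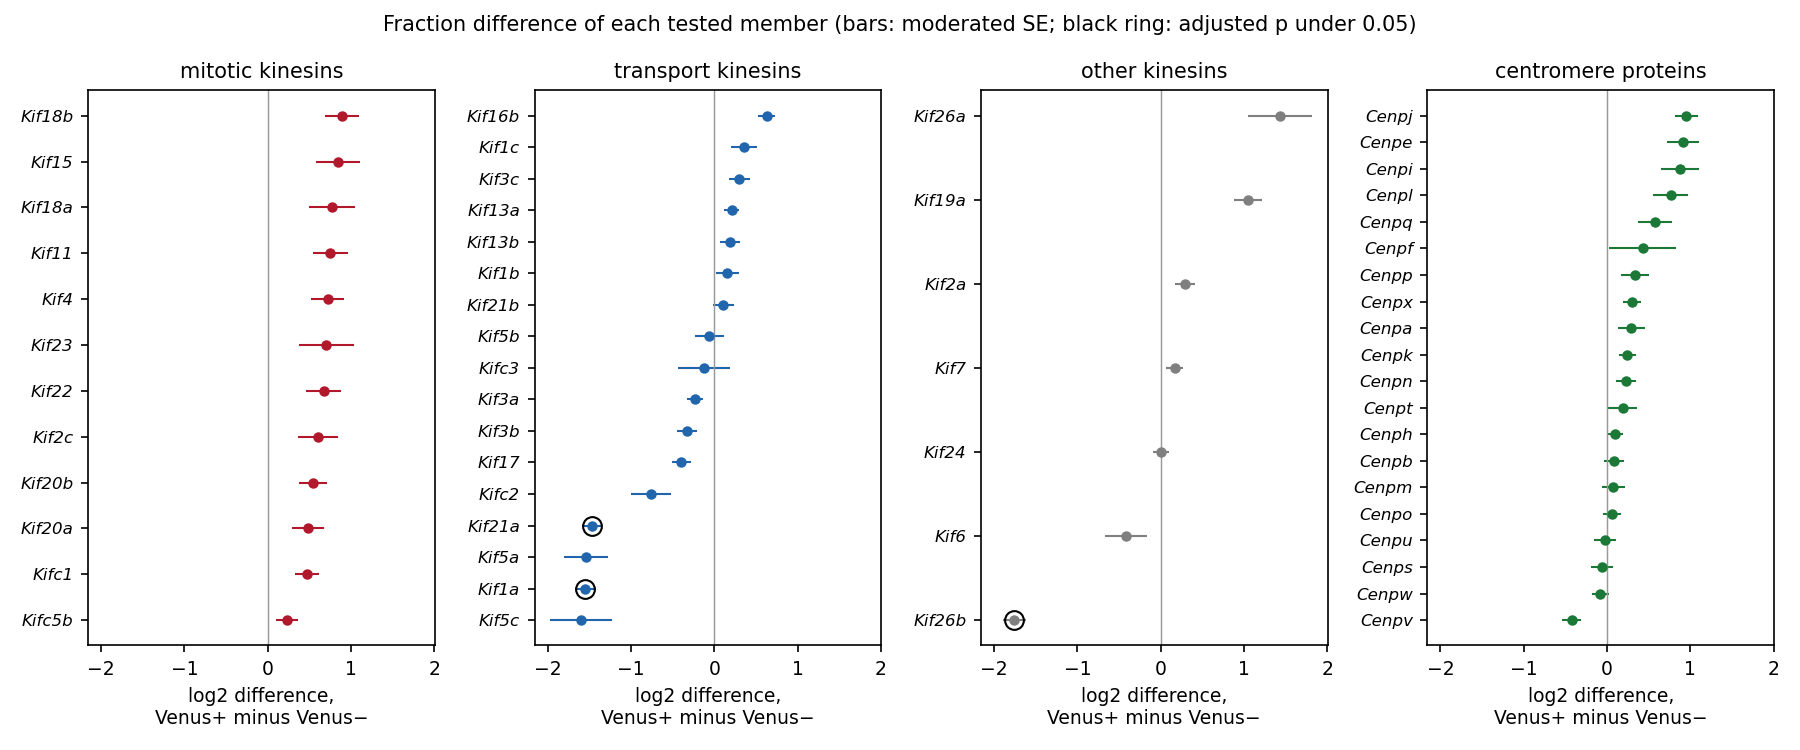
Log2 difference between Venus-positive and Venus-negative cells for each of the 56 tested members, by class, with bars of 1 moderated SE; black rings mark the 3 genes with a limma adjusted p under 0.05. All 12 mitotic kinesins lie to the right of 0, whereas the transport kinesins run from 0.63 to -1.60.

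The other kinesins held both the largest increase and the largest decrease among the members. Kif26b, an atypical kinesin required for kidney development, stood at 0.36 and 0.29 in Venus-negative and at -1.30 and -1.56 in Venus-positive cells. No array of either group came near the other, and Kif26b fell 3.38-fold (-1.76 ± 0.14 SE, limma adjusted p = 0.0354). Its relative Kif26a, known from enteric neuron growth, lay in the opposite direction, at -1.46 and -0.49 against 0.27 and 0.64. The Venus-negative replicates of Kif26a were 0.96 apart, and its difference of 1.43 ± 0.39 did not pass (adjusted p = 0.148). Kif19a, which shortens microtubules at the tips of cilia, stood at -2.45 and -2.26 against -1.14 and -1.48 (1.04 ± 0.17, 2.06-fold, adjusted p = 0.0774). It passed with arrays centred on their median (0.0480) and with a signal-dependent variance prior (0.0492), and its difference was 0.60 with model-based background correction.

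Kinesins of Hedgehog signalling and centrioles differed little. Kif7, which organises the tip of the primary cilium, gave 0.17 ± 0.11 (95% interval -0.13 to 0.47), and Kif24, which acts on centriolar microtubules, 0.00 ± 0.10 (-0.27 to 0.28). Kif2a, a microtubule depolymerase of spindle poles and neurons, gave 0.29 ± 0.12, with 0.52 ± 0.12 and 0.20 ± 0.15 on its other probes. Kif6, a dim probe, gave -0.42 ± 0.25. Kif9, Kif12, Kif27 and the pseudogene Kif4-ps were well above background on at most 1 array and were not tested.

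**Figure D4:**
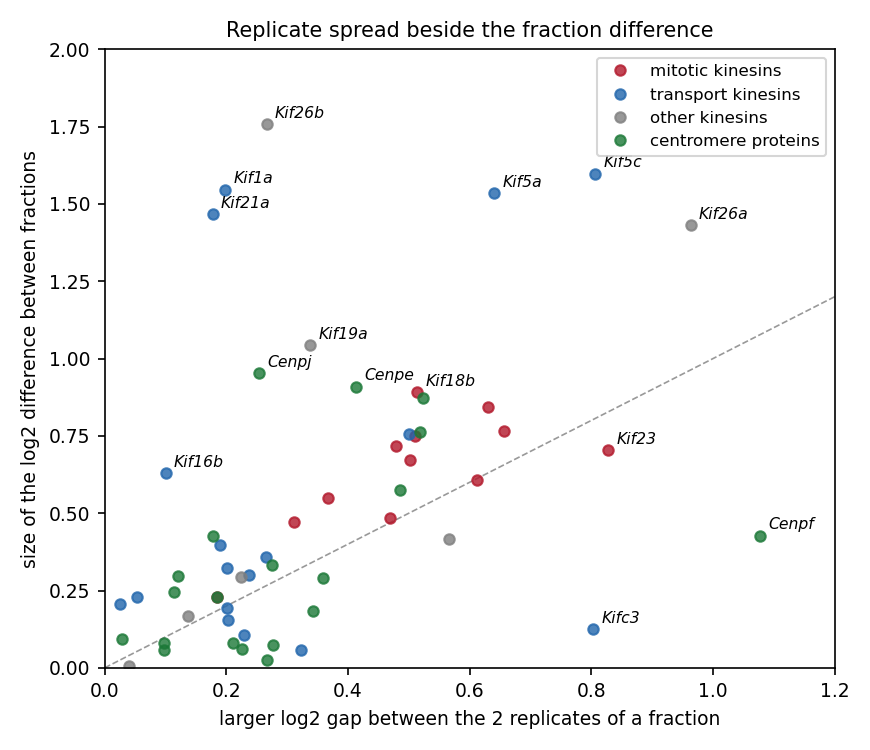
Size of the log2 difference between fractions (vertical) against the larger of the 2 gaps between replicates of a fraction (horizontal), in log2 units, for the 56 tested members; the dashed line marks equality. Of all members 38 of 56 lie above the line; Kif26b, Kif1a and Kif21a lie far above it with gaps of 0.27 or less, and 10 of 12 mitotic kinesins lie above it with a median gap of 0.51.

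Centromere proteins were divided between a few with higher signal in Venus-positive cells and many near no difference. All 20 were tested, 16 with a positive and 4 with a negative difference, and the median was 0.24. In 11 members the Venus-positive arrays lay above and in 2 below the Venus-negative arrays (29.1% and 28.4% of all features). The difference exceeded the larger replicate gap in 11 of 20, or 55.0%, near the 46.1% of all features.

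The CENP genes with the largest differences act on microtubules or in the inner network. Cenpe, a mitotic kinesin by structure that moves chromosomes to the spindle equator, stood at 4.13 and 3.71 in Venus-negative and at 4.72 and 4.94 in Venus-positive cells (0.91 ± 0.19, 1.88-fold, limma adjusted p = 0.110). Cenpj (CPAP), a centriole assembly protein despite its name, stood at 1.60 and 1.35 against 2.38 and 2.47 (0.95 ± 0.14, 1.93-fold, adjusted p = 0.0658). Both had groups well apart and missed the threshold. With a signal-dependent variance prior Cenpj (adjusted p = 0.0241) and Cenpe (0.0459) passed, and Cenpj also with model-based background correction (0.0473).

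The histone and its loading platform differed less. Cenpa, the centromere histone itself, stood at 3.59 and 3.23 against 3.71 and 3.70, with a difference of 0.29 ± 0.16 (95% interval -0.17 to 0.74). Venus-negative replicate 1 lay closer to the Venus-positive arrays than to its own replicate. Cenpb, which binds a sequence motif in centromeric repeats, gave 0.08 ± 0.12 and on another probe -0.26 ± 0.11.

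The inner network bound to CENP-A was represented by 14 members, with 11 positive differences and a median of 0.21. Cenpi stood at -0.01 and -0.54 in Venus-negative and at 0.73 and 0.47 in Venus-positive cells (0.87 ± 0.23, limma adjusted p = 0.144). Cenpl stood at 0.97 and 0.46 against 1.54 and 1.42 (0.76 ± 0.21, adjusted p = 0.156), and Cenpq at 1.12 and 0.63 against 1.51 and 1.39 (0.57 ± 0.20, adjusted p = 0.215). In these 3 genes Venus-negative replicate 2 was the lowest array, as in the mitotic kinesins. Cenph, Cenpk, Cenpn and Cenpp had differences from 0.09 to 0.33. The histone-fold complex of 4 proteins gave 0.30 ± 0.11 for Cenpx, 0.19 ± 0.17 for Cenpt, -0.08 ± 0.10 for Cenpw and -0.06 ± 0.14 for Cenps. Groups did not overlap for Cenpx (higher in Venus-positive cells) and Cenpw (lower), as in 57.5% of all features. The differences of Cenpm, Cenpo and Cenpu lay between -0.02 and 0.08.

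Cenpv and Cenpf stood apart from the rest. Cenpv, a protein of the spindle midzone, was the centromere protein with the most negative difference, at 2.05 and 2.23 against 1.67 and 1.75 (-0.43 ± 0.12, limma adjusted p = 0.151). Cenpf, a large kinetochore protein of late G2, was read by a dim probe at -3.03 and -2.95 against -2.03 and -3.10. Its Venus-positive replicates differed by 1.08, more than any fraction difference of a centromere protein, and its value (0.43 ± 0.40) turned to -0.11 without Venus-positive replicate 1.

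The partners of these proteins in division showed the same direction as the mitotic kinesins, without any gene passing over all features. All 14 spindle assembly and cytokinesis partners had positive differences (median 0.73), led by Nusap1, a spindle microtubule bundler (1.35 ± 0.27, limma adjusted p = 0.102), and Prc1, the midzone crosslinker that binds Kif4 (1.27 ± 0.30, adjusted p = 0.126). In the passenger complex and shugoshins 6 of 6 were positive (median 0.60), led by Incenp (0.82 ± 0.20) and Haspin (0.73 ± 0.22), and the Aurkb probe was not well above background on any array. CENP-A loading factors, condensin and topoisomerase II gave 10 of 10 positive differences (median 0.48), among them Top2a (0.65 ± 0.23). The outer kinetochore KMN network gave 10 of 10 (median 0.44), led by Nuf2 (0.83 ± 0.23) and Knl1 (0.73 ± 0.18), and the spindle checkpoint 10 of 10 (median 0.32), led by Ttk (0.60 ± 0.28) and Bub1b (0.53 ± 0.24). At an unadjusted p under 0.05, 8, 2, 6, 3 and 1 genes of these 5 lists were higher and 0 were lower, against 12.3% and 11.4% of all features.

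Venus-negative replicate 2 was also lower than replicate 1 in these lists, by a median of -0.55 for the spindle partners, -0.46 for the passenger complex, -0.37 for the loading factors, -0.46 for the KMN network and -0.31 for the checkpoint. Genes of the G1/S transition and DNA replication were also lower in Venus-negative replicate 2 in 17 of 21 tested, by a smaller median of -0.10. Between the fractions, 7 of these 21 had positive and 14 negative differences, with a median of -0.11, and 0 passed (at an unadjusted p under 0.05, 1 was higher and 3 lower in limma). The largest values there were those of Ccne1, a cyclin of S phase entry (-0.76 ± 0.15, adjusted p = 0.0998), and Tyms, thymidylate synthase (0.40 ± 0.10, adjusted p = 0.137).

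**Figure D5:**
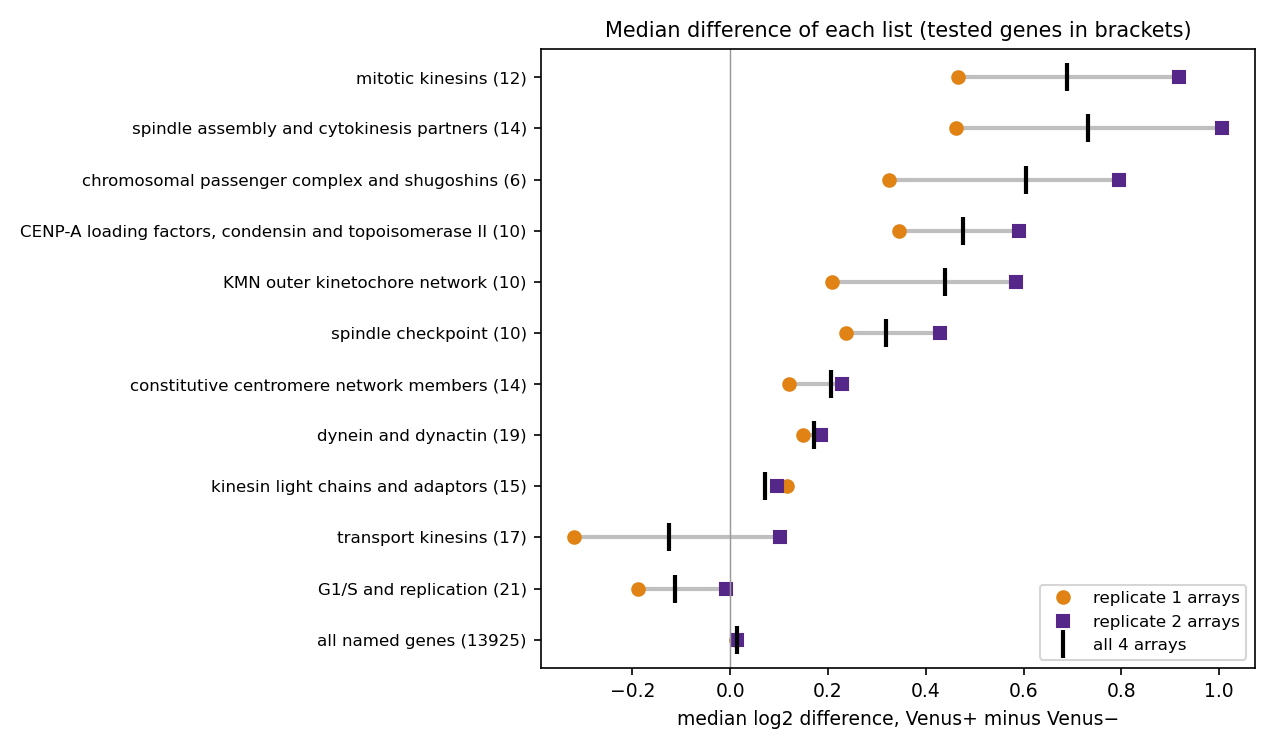
Median log2 difference, Venus-positive minus Venus-negative, for each list of genes, from replicate 1 arrays (circles), replicate 2 arrays (squares) and all 4 arrays (black bars). The mitotic kinesins and the 5 lists of their division partners lie between 0.21 and 1.01 in both replicates, with the larger value in replicate 2, whereas transport kinesins run from -0.32 to 0.10.

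The lists of cargo adaptors and of the opposing motor dynein had small median differences. The 15 kinesin light chains and adaptors had a median of 0.07, with 9 positive differences and 0 passing (in limma 2 were higher and 2 lower at an unadjusted p under 0.05). The largest were negative: Klc3, a light chain that binds Kif5 heavy chains (-1.08 ± 0.16, adjusted p = 0.0687), and Mapk8ip1, a scaffold of kinesin-1 cargo (-0.63 ± 0.11, adjusted p = 0.0819). The kinesin-2 adaptor Kifap3 gave 0.11 ± 0.12. Of 19 dynein and dynactin genes 14 were positive (median 0.17), and 0 passed (1 higher and 1 lower at an unadjusted p under 0.05), the largest being Nde1 (0.38 ± 0.12) and Dynll2 (-0.36 ± 0.10).

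Markers of cell types differed between the fractions beside these genes, and their part in the kinesin and centromere differences was not tested. The sort markers Kdr (0.44 ± 0.11, limma adjusted p = 0.138) and Hoxb6 (1.01 ± 0.16, adjusted p = 0.0716) were well above background on all arrays. The summed level of 10 endothelial markers, in units of the 75th percentile signal, was 186 and 235 in Venus-negative and 389 and 475 in Venus-positive cells, with 10 of 10 positive and 3 passing. That of 7 primitive streak markers was 50.7 and 41.9 against 15.0 and 10.8, with 7 of 7 negative and 5 passing. Of these 5, Mesp1 was kept only through the Venus-negative arrays, where it was higher, so its pass is no separate support. The 8 pluripotent cell markers summed to 76.7 and 50.2 against 30.5 and 20.8, with 6 of 8 negative and 1 passing. OP9 stromal markers (10 genes) summed to 72.2 and 60.3 against 60.3 and 39.1, and early blood markers (8 genes) to 107 and 158 against 91.2 and 103. The brightest probes weigh most in such sums. Median log2 differences of the tested markers were 1.45 (endothelial), -4.91 (primitive streak), -0.53 (pluripotent), -0.32 (OP9) and -0.42 (blood). In Venus-negative replicate 2, the array with the lowest mitotic kinesins, 1 of 8 blood and 1 of 10 endothelial markers were below replicate 1. So were 8 of 9 tested OP9, 7 of 8 pluripotent and 5 of 7 streak markers, against 44.4% of all features. No marker of these 5 lists was below background on all 4 arrays.

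Beside the transport kinesins, a list of 10 neural markers was drawn up after the kinesin values had been seen and carries no test as a list. Its summed level was 11.8 and 13.3 in Venus-negative and 12.6 and 13.3 in Venus-positive cells, while 4 of 6 tested markers had negative differences (median -0.42). Tubb3, a neuronal tubulin, fell by 2.61 ± 0.27 (limma adjusted p = 0.0463). Stmn2, a microtubule regulator of neurons, gave -2.46 ± 0.35 (adjusted p = 0.0660), Elavl3 -0.63 ± 0.24, Sox1 -0.21 ± 0.16, Ncam1 0.68 ± 0.15 and Snap25 0.08 ± 0.15. Dcx, Map2, Neurog2 and Pax6 were not well above background on any array.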

How the data were processed

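The authors hybridised RNA of 2 Venus-negative and 2 Venus-positive samples to 4 single-colour Agilent arrays on 1 slide. Each deposited scanner table holds intensity values from Agilent Feature Extraction 10.10.1.1, background-subtracted and detrended within the array, per the file headers; its quality flags are other per-spot values, also deposited. The authors' deposited value table holds intensity values too, which matched the scanner's processed signal after scaling by a factor per array (2.15, 2.44, 1.98 and 2.11); the origin of these factors is not given in the sources used here. It served as an alternative.

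Control and outlier spots were left out, the processed signal was put on a log2 scale relative to its 75th percentile within the array (396 and 347 for Venus-negative, 429 and 398 for Venus-positive arrays), and spots of a probe were averaged. Between 50.7% and 53.0% of spots were well above background, 0 were saturated, and the number of arrays limits precision. A probe was kept if both arrays of either group flagged it as well above background. Accessions were matched to symbols by means of RefSeq gene records for GRCm38.p6 (21465 of 37881), and the brightest probe on average stood for each gene, giving 13925 genes and 9622 unnamed probes. limma 3.58.1 in R 4.3.3 (package data.table, version 1.17.8) fitted all 4 arrays, with 2 residual and 1.80 prior degrees of freedom, after a test on simulated data.

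Members, roles and lists were chosen with earlier results of these data known. All tested members may be named; in other lists the 2 largest differences are named, except for 1 gene that is not reported here, and the neural markers, Kifap3, motif range and unpassed list members beyond these were named after values were seen. Alternatives were normexp with an offset of 50 (on the median signal, as no mean signal column was used), median centring, quantile normalization, other filters, a variance trend, the replicate block, mean of probes, the value table and leaving out each array.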

Additional observations from a re-analysis of the deposited data

How the results depend on the processing

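The members called by limma numbered 3 in the reported fit, 5 with normexp (4 lower, 1 higher), 7 with a variance trend (4 lower, 3 higher), 4 with each array centred on its median, 3 with quantile normalization, 3 with the value table and 0 with dim probes kept (49102 features, 6540 with an unadjusted p under 0.05). Leaving out any 1 array gave 0 to 0 members called, and 0 of 23547 features called against 503; 3481 to 4534 features then had an unadjusted p under 0.05. Replicate numbers were shared between the groups, and deviations of same-numbered arrays from their group means correlated at r = 0.413 across features, over 2 pairs only. With the replicate number as a block 4 members passed, Kif5c in addition (adjusted p = 0.0437), and no other member changed its call. Kif26b, Kif21a and Kif1a kept their direction in every setting run, with differences of -1.62 to -1.89, -1.38 to -1.56 and -1.45 to -1.65 without 1 array.

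The mitotic kinesin median was 0.57 to 0.76 with all 4 arrays and 0.39 to 0.94 without 1 array, and the 12 members stayed positive in each. Median centring moved the median of all features from 0.00294 to 0.072, and keeping dim probes to -0.17. Median centring moved the centromere median to 0.30 and that of the other kinesins to 0.24. Quantile normalization gave 0.19 for centromere proteins, and keeping dim probes 0.00499 for the other kinesins. Without 1 array the centromere median ran from 0.18 to 0.25, the other kinesins from 0.098 to 0.23, the transport kinesins from -0.24 to 0.0529, and the mitotic minus transport difference from 0.56 to 1.13.

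Members near 0 changed sign: Cenpb (-0.0914) and Cenpo (-0.0147) with the mean of probes, Cenpu (0.0483) and Kif13b (-0.00739) with normexp, Kif24 (-0.000710) with the value table, and Cenps (0.00751), Cenpu (0.0443) and Kif5b (0.0109) with median centring. Without 1 array the sign also varied, over -0.0236 to 0.187 for Cenpb, -0.112 to 0.966 for Cenpf, -0.0629 to 0.213 for Cenpm, -0.174 to 0.0514 for Cenps, -0.158 to 0.109 for Cenpu, -0.00759 to 0.222 for Kif21b, -0.0152 to 0.0252 for Kif24, -0.220 to 0.103 for Kif5b and -0.526 to 0.276 for Kifc3. The cause was not tested.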
